A study of Mus musculus with 15 samples.

Results

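The genes described here are imprinted genes, which in mouse are expressed mainly or only from the allele of one parent. They were named by a list of 43 symbols, and a gene counted as measured where the array's annotation gave a probe set with exactly 1 symbol. By that rule 35 of the 43 were measured, among 19937 genes on the arrays, and they come from 15 loci. H19, Kcnq1ot1, Peg13 and Zrsr1 were not named by the annotation, and Mirg, Snrpn, Ube3a and Gnas were named only on probe sets with several symbols, so these 8 were not analysed here. The list was drawn up with earlier results on Plagl1 in these data known.

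The arrays, 15 single-colour Affymetrix arrays in 5 groups of 3, read total RNA from embryonic stem (ES) cells of the mouse. All groups were the same 2i-adapted line, which carries a biotin and 3xFLAG tag at its Ctnnb1 gene, which encodes beta-catenin, and expresses BirA, a biotin ligase (Ctnnb1-BioFLneo;BirA). The 2iLIF group was in long-term culture with CHIR99021 at 3 µM, PD0325901 at 1 µM and LIF. In the other groups LIF, and each inhibitor not kept, had been absent for 24 h: 2i kept both inhibitors, CHIR kept CHIR99021 alone, PD03 kept PD0325901 alone, and DMSO kept neither. CHIR99021 blocks GSK3, a kinase whose activity leads to the breakdown of beta-catenin. PD0325901 blocks MEK, which acts upstream of ERK, and LIF is a cytokine that activates STAT3. Only 1 line was used, and its tagged gene encodes the protein that GSK3 inhibition stabilises.

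Imprinted genes lie in clusters, and each cluster is governed by a control region whose DNA methylation differs between the parental alleles. Many of them act on growth: Igf2 promotes it, and Cdkn1c, Grb10 and Phlda2 restrain it. Plagl1 (also called Zac1) encodes a zinc finger transcription factor expressed from the paternal allele, which in mouse has been reported to act on other imprinted genes, among them Igf2, H19, Cdkn1c and Dlk1. The arrays sum the RNA of both alleles, so imprinting itself was not measured.

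Values are log2 RMA signals, and a difference of 1 is a 2-fold difference. A gene passed in a comparison when its adjusted p (limma, Benjamini-Hochberg over all 19937 genes) was under 0.05. Rose, raised, fell and lowered refer to the group named first. With a factor means where it was kept, against where it had been withdrawn for 24 h. Such words compare kept with withdrawn, and do not describe a factor being added to cells that lacked it. As a reference for low signal, the means of 1027 olfactory receptor genes had a median of 4.90 and a 95th percentile of 6.25. Of the 35 imprinted genes, 27 were above that percentile in all groups, and 6 (Airn, Zim1, Usp29, Asb4, Kcnk9 and Rasgrf1) were above it in none. Replicate arrays correlated with r from 0.998 to 0.999 over all genes. Whether replicates were grown as separate cultures is not stated in the labels, and p-values therefore rest on the spread of these arrays, which may be technical. All 10 ES cell markers measured were above the reference, with Pou5f1 between 12.49 and 12.54 in the group means, and their summed signal ran from 111.5 to 112.3 in DMSO and from 114.3 to 117.5 in the other groups. Summed log2 signals of 6 primed epiblast markers ran from 46.7 to 46.8 in 2iLIF, 49.1 to 49.8 in 2i, 51.3 to 52.1 in CHIR, 52.4 to 52.6 in PD03 and 55.3 to 56.9 in DMSO. The sums of those markers thus moved with the groups, as did imprinted genes below, and the part of the markers in the results was not tested. Single markers did not all follow their sums. The primed epiblast marker Cdh2 was highest in CHIR (7.43) and lowest in PD03 (7.06). The ES cell marker Utf1 was highest in DMSO (12.51) and lowest in 2iLIF (11.57). In such bulk RNA, fewer cells of a kind and less RNA per cell cannot be told apart.

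Promoter windows of 300 bases from RefSeq (GRCm38.p6) are shown for Plagl1 and for Meg3, Peg3 and Nnat, which moved against Plagl1 when CHIR99021 was present. CpG dinucleotides, the sites of DNA methylation, are in capitals.
Plagl1, chr10:13090582-13090881, plus strand: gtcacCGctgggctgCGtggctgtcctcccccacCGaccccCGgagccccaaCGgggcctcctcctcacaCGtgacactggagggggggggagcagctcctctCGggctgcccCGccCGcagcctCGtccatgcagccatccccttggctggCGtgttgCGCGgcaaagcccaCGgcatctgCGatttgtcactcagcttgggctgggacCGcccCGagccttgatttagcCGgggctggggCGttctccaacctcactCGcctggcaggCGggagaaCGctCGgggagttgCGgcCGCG
Meg3, chr12:109540746-109541045, plus strand: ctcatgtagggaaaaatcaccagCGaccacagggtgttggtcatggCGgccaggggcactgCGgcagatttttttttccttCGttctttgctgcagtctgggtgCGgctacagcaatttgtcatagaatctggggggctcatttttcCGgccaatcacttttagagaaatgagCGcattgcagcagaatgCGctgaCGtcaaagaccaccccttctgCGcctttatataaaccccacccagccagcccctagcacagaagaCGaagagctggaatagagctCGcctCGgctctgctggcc
Peg3, chr7:6730370-6730669, minus strand: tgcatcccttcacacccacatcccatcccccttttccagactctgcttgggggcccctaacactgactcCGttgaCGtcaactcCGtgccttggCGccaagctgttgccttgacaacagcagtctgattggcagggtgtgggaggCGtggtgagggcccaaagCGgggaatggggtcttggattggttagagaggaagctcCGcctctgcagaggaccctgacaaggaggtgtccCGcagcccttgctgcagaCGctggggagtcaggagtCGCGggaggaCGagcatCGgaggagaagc
Nnat, chr2:157559828-157560127, plus strand: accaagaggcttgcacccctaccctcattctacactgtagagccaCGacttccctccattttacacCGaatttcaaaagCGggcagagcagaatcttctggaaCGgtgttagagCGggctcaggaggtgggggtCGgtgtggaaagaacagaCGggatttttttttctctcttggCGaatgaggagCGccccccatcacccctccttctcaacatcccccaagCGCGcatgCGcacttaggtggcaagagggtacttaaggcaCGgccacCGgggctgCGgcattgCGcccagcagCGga
The Plagl1 window holds 26 CpGs, the Nnat window 17, and the Meg3 and Peg3 windows 13 each, against a median of 7 over 32851 RefSeq windows. For a gene with several windows, the window with the most CpGs is shown, and another Meg3 window holds 1 CpG. RefSeq windows were matched for 28 of the 35 genes. Both strands were searched for CTTTGA, the core bound by the TCF and LEF partners of beta-catenin, and for GGGGCCCC, a palindrome bound by PLAGL1. CTTTGA is in 16.0% of all windows and, of these 4, in the Meg3 window. GGGGCCCC is in 1.08% of all windows and, of these 4, in the Peg3 window. The Usp29 window, which overlaps that of Peg3 on the other strand, also holds it. Of all 38 windows matched to the 28 genes, 4 hold GGGGCCCC: those of Peg3, Usp29 and Rasgrf1 and a Ppp1r9a window. CTTTGA is in 6 of the 38, among them windows of Blcap, Igf2, Rasgrf1, Ddc and Dio3 beside that of Meg3. Such matches describe the letters of these windows and were not tested as binding sites.

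Plagl1 was higher wherever a factor was present, and most with CHIR99021. It read 10.62, 10.66 and 10.62 on the 2iLIF arrays, 10.26, 10.23 and 10.06 in 2i, and 9.69, 9.81 and 9.71 in CHIR. In PD03 it read 7.64, 7.71 and 7.59, and in DMSO 7.33, 7.04 and 6.73. The 5 groups were ordered 2iLIF, 2i, CHIR, PD03 and DMSO from high to low, with no overlap of arrays between neighbours, and the DMSO arrays were the most spread (SD 0.30, n = 3).

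With CHIR99021 alone kept, Plagl1 was 2.71 ± 0.10 (SE) higher than in DMSO, which is 6.52-fold (limma adjusted p = 4.03e-11). With PD0325901 present in both groups, Plagl1 was higher by 2.54 ± 0.10, or 5.80-fold, where CHIR99021 was kept (2i minus PD03, adjusted p = 1.56e-10). Where PD0325901 was kept, Plagl1 was higher by 0.61 ± 0.10 without CHIR99021 (adjusted p = 4.63e-04) and by 0.45 ± 0.10 with it (adjusted p = 0.0108). With LIF kept, in 2iLIF minus 2i, Plagl1 was higher by 0.45 ± 0.10 (adjusted p = 0.00723). Both inhibitors together gave 3.15 ± 0.10 over DMSO, or 8.88-fold (adjusted p = 5.06e-12). The interaction of the inhibitors, which is the difference between the CHIR99021 effect with and without PD0325901, was -0.17 ± 0.15 (adjusted p = 0.73). The range of the group means of Plagl1, 3.60, ranked 6 among all 19937 genes and 1 among the 35.

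**Figure D1:**
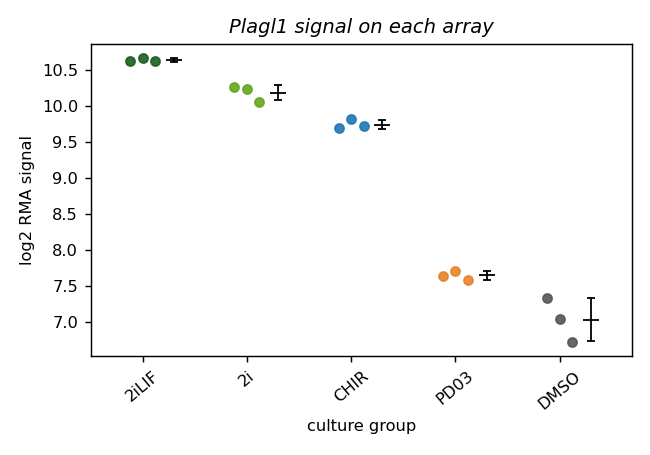
Log2 RMA signal of Plagl1 on each of the 15 arrays by culture group; points are arrays, and the dash with bars is the mean ± SD (n = 3). The 3 groups with CHIR99021 lie between 10.06 and 10.66 or, for CHIR alone, between 9.69 and 9.81, and the 2 groups without it between 6.73 and 7.71.

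The genes next to Plagl1 on chromosome 10 had smaller differences. The 3 nearest measured genes on either side, a choice made after the Plagl1 values were seen, were Utrn, Stx11 and Sf3b5 on one and Zc2hc1b, Ltv1 and Phactr2 on the other. In CHIR minus DMSO, Ltv1 was at 0.16 ± 0.04 (limma adjusted p = 0.0148) and Phactr2 at 0.17 ± 0.06 (adjusted p = 0.0493), and the other 4 lay between -0.06 and -0.01 without passing. Phactr2, which is also on the list of other imprinted genes used below, rose in all 5 comparisons of the inhibitors: by 0.42 ± 0.06 in 2i minus DMSO (adjusted p = 4.36e-05), 0.24 ± 0.06 in PD03 minus DMSO, 0.25 ± 0.06 in 2i minus CHIR and 0.18 ± 0.06 in 2i minus PD03. It thus had the Plagl1 call in 6 of the 7 comparisons, all but that with LIF (0.09 ± 0.06, adjusted p = 0.451). Of the relatives of Plagl1, the paralogue Plagl2 rose by 0.26 ± 0.05 with CHIR99021 alone (adjusted p = 0.00201). Plag1, the other paralogue, was at 0.00 ± 0.08 (adjusted p = 0.994).

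Across all genes the Plagl1 call in 6 or 7 of the 7 comparisons was rare, at 225 of 19936. The 34 other measured members held 0 such genes, which is near that share, and Ddc came nearest with 5 of 7. Ddc did not pass in CHIR minus DMSO (0.02 ± 0.06) or in 2i minus PD03 (-0.006 ± 0.06), where the Plagl1 difference with CHIR99021 lies. The 7 comparisons include the interaction, in which neither Plagl1 nor any other member passed, so every member had the Plagl1 call there. In CHIR minus DMSO 4 of the 35 were higher and 6 lower, or 28.6% in either direction against 20.8% of all genes (10% higher and 10.8% lower). In 2i minus PD03 5 were higher and 7 lower (19.5% of all genes passed, 10.1% higher and 9.44% lower). In PD03 minus DMSO 4 were higher and 8 lower (16.8% of all genes, 8.67% higher and 8.15% lower), and in 2i minus CHIR 3 were higher and 8 lower (9.46% of all genes, 5.70% higher and 3.76% lower). LIF gave 3 higher and 10 lower (12.2% of all genes, 4.56% higher and 7.66% lower). With both inhibitors against neither, 8 rose and 14 fell, or 62.9% against 25.5% of all genes (13.6% higher and 11.9% lower). Several of these comparisons share arrays and are not independent of each other. The median differences of the 35 lay between -0.05 and 0.01 in these comparisons, and those of all genes between -0.01 and 0.02. An F-test over the 5 groups passed 22 of the 35, against 41.8% of all genes. By the parental allele expressed, 3 of 18 paternal and 5 of 16 maternal genes rose in 2i minus DMSO, and 9 and 5 fell.

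The interaction passed for 0 of the 35 with limma, where 2.04% of all genes passed (0.933% higher and 1.10% lower). At an unadjusted p under 0.05 it counted 2 of the 35, Grb10 (-0.17 ± 0.05, limma adjusted p = 0.117) and Ndn (-0.24 ± 0.09, limma adjusted p = 0.275), against 12.3% of all genes.

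**Figure D2:**
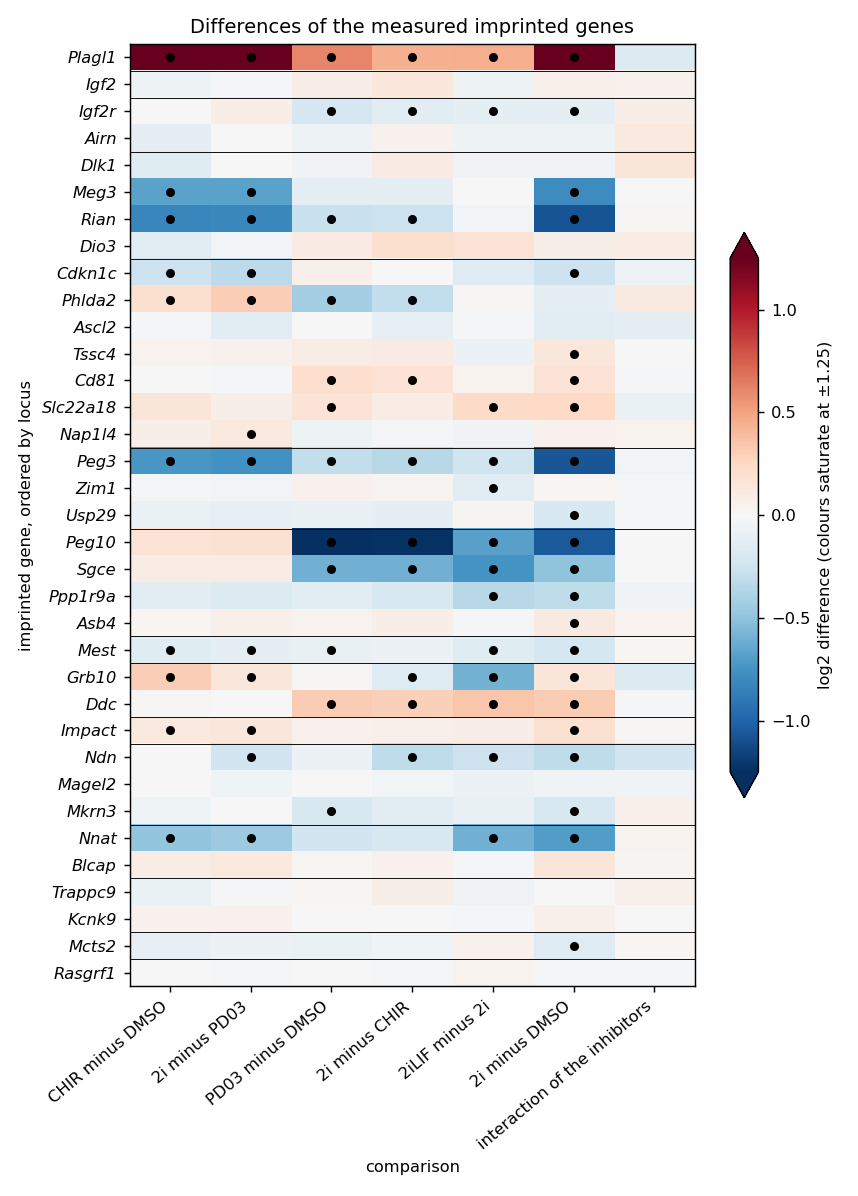
Log2 difference of the 35 measured imprinted genes (rows, grouped by locus between the thin lines) in the 7 comparisons (columns); red is higher and blue lower in the first group, and a dot marks limma adjusted p under 0.05. Plagl1 is red with a dot in all columns except the interaction, which has no dots, while Meg3, Rian, Peg3 and Nnat are blue in the first 2 columns and Peg10 and Sgce in the next 3.

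At the Dlk1 and Dio3 locus the maternally expressed long non-coding RNAs were lower where CHIR99021 was kept. Meg3 read 11.18, 11.17 and 11.14 in DMSO and 11.03, 11.09 and 11.02 in PD03. In CHIR it read 10.60, 10.37 and 10.49, in 2i 10.39, 10.36 and 10.38, and in 2iLIF 10.46, 10.35 and 10.33. All 9 arrays with CHIR99021 were thus below all 6 without it, while the 3 groups with CHIR99021 overlapped one another. Meg3 fell by 0.67 ± 0.05 with CHIR99021 alone (limma adjusted p = 1.13e-07) and by 0.67 ± 0.05 in 2i minus PD03 (adjusted p = 1.71e-07). It was at -0.12 ± 0.05 in PD03 minus DMSO (adjusted p = 0.143) and at 0.00 ± 0.05 with LIF (adjusted p = 0.989).

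Rian, a non-coding RNA that hosts small nucleolar RNAs, was likewise highest in DMSO and PD03, with 2i and 2iLIF overlapping. It read 9.28, 9.39 and 9.23 in DMSO, 9.01, 9.05 and 9.01 in PD03, 8.56, 8.43 and 8.47 in CHIR, 8.16, 8.34 and 8.16 in 2i, and 8.05, 8.15 and 8.36 in 2iLIF. CHIR99021 alone lowered it 1.76-fold (-0.82 ± 0.07, limma adjusted p = 5.68e-07). PD0325901 lowered it by a smaller amount, -0.28 ± 0.07 alone (adjusted p = 0.0117) and -0.27 ± 0.07 with CHIR99021 (adjusted p = 0.0263). The first of these calls was lost without DMSO replicate 2 (-0.24, adjusted p = 0.0549), and the second without 2i replicate 1 or 3 or CHIR replicate 1 or 3 (-0.23 to -0.27, lowest adjusted p 0.0645). Rtl1, a paternally expressed gene of the locus that lies opposite a maternal transcript, was at -0.32 ± 0.05 with CHIR99021 alone (adjusted p = 3.19e-04). Which strand its probe set detects was not examined, so its signal was not assigned to a strand here. Neither protein gene at the ends of the locus passed in a comparison: the Notch-family ligand gene Dlk1 had group means from 7.90 to 8.05, and Dio3, a thyroid hormone deiodinase, from 5.90 to 6.28.

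The same locus holds a large group of miRNA genes between Meg3 and Dio3, of which 40 had a probe set. They are no members of the list and were examined after Meg3 and Rian were seen. With CHIR99021 alone 31 of the 40 fell and 0 rose (10.8% of all genes were lower), with a median of -0.44, while of 260 miRNA genes elsewhere 9 fell and 10 rose, with a median of -0.01. In 2i minus PD03 28 of the 40 fell and 0 rose (9.44% of all genes were lower), while of the 260 elsewhere 1 fell and 16 rose. PD0325901 alone lowered 14 of the 40 (8.15% of all genes), a count of 7 without PD03 replicate 2, 8 without PD03 replicate 3 and 9 without DMSO replicate 3. By their mean over all arrays, only 23 of the 40 were above the low-signal reference. Of these 23, 17 fell with CHIR99021 alone, with a median of -0.49 (10.8% of all genes were lower). In 2i minus PD03 17 of the 23 fell (9.44% of all genes), and with PD0325901 alone 7 fell (8.15% of all genes). None of the 23 rose in these comparisons. The rest of the 40 were not above that reference, so their calls rest on low signal. With LIF the differences of the 40 lay between -0.19 and 0.07. Probe sets for these genes lie on short hairpins, and the labelling of total RNA does not separate mature miRNA from longer precursors, so these are not levels of mature miRNAs.

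The 4 miRNA genes with the lowest CHIR minus DMSO difference among those whose mean over the 15 arrays was above the reference are shown by a mature sequence each (RefSeq, GRCm38.p6, chromosome 12, plus strand), with the seed in capitals.
mmu-miR-539-5p, chr12:109728136-109728157: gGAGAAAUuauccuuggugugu
mmu-miR-377-3p, chr12:109740553-109740574: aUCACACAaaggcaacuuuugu
mmu-miR-679-5p, chr12:109715587-109715608: gGACUGUGaggugacucuuggu
mmu-miR-382-5p, chr12:109733781-109733802: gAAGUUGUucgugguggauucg
RefSeq also holds miR-377-5p, miR-679-3p and miR-382-3p for these genes, which are left out here. No seed is shared among the 4 printed sequences. Mir377 read 9.28, 9.48 and 9.64 in DMSO and 9.33, 9.25 and 9.32 in PD03, but 8.53, 8.45 and 8.61 in CHIR, 8.26, 8.33 and 8.39 in 2i, and 8.22, 8.20 and 8.28 in 2iLIF. Its arrays with and without CHIR99021 did not overlap. Mir539 differed most, at -0.95 ± 0.07 (limma adjusted p = 1.14e-07), but its means of 6.10 in CHIR, 5.85 in 2i and 5.73 in 2iLIF were under the low-signal reference.

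**Figure D3:**
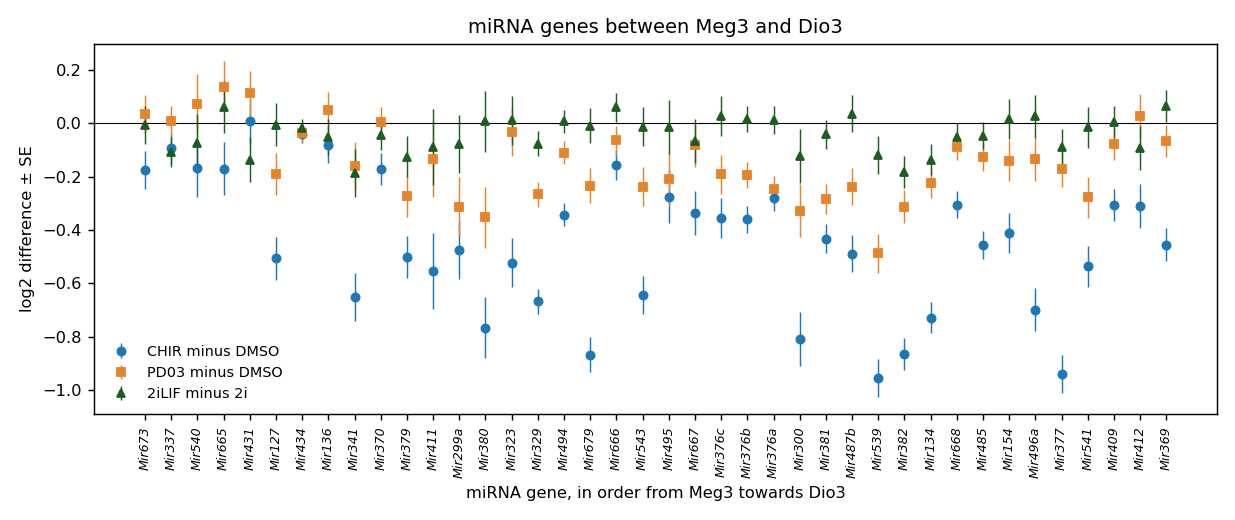
Log2 difference ± SE (limma) of the 40 miRNA genes between Meg3 and Dio3, in their order along the chromosome, in CHIR minus DMSO (circles), PD03 minus DMSO (squares) and 2iLIF minus 2i (triangles). All circles except that of Mir431 lie below 0, down to -0.95, while the triangles lie between -0.19 and 0.07.

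Peg3, a paternally expressed zinc finger gene, was lower with each of the 3 factors. It read 12.08, 11.97 and 12.05 in DMSO, 11.72, 11.73 and 11.72 in PD03, 11.32, 11.32 and 11.28 in CHIR, 10.97, 10.97 and 10.95 in 2i, and 10.71, 10.71 and 10.70 in 2iLIF. The groups followed the Plagl1 order turned round, and no 2 of them overlapped. The difference was -0.73 ± 0.03 with CHIR99021 alone (limma adjusted p = 6.22e-10), -0.31 ± 0.03 with PD0325901 alone (adjusted p = 8.95e-06) and -0.25 ± 0.03 with LIF (adjusted p = 9.10e-05). Its neighbours Usp29 and Zim1 had group means between 5.47 and 5.71, below the low-signal reference.

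Nnat encodes neuronatin, a small membrane proteolipid, and is paternally expressed from within an intron of Blcap. It read 9.11, 9.28 and 9.41 in DMSO, 9.10, 9.03 and 8.94 in PD03, 8.87, 8.69 and 8.75 in CHIR, 8.43, 8.53 and 8.74 in 2i, and 8.001, 7.97 and 7.92 in 2iLIF. It fell by 0.50 ± 0.08 with CHIR99021 alone (limma adjusted p = 3.19e-04) and by 0.61 ± 0.08 with LIF (adjusted p = 7.48e-05), and was at -0.24 ± 0.08 with PD0325901 alone (adjusted p = 0.0507). Blcap had group means from 8.34 to 8.49 and did not pass in any comparison. Cdkn1c, an inhibitor of cyclin-dependent kinases, fell by 0.26 ± 0.07 with CHIR99021 alone (adjusted p = 0.0166), a call lost without CHIR replicate 1 or 2 or DMSO replicate 3 (-0.23 to -0.24, lowest adjusted p 0.0541), and by 0.32 ± 0.07 in 2i minus PD03 (adjusted p = 0.00404). Mest, with group means from 12.25 to 12.62, fell by 0.15 ± 0.03 with CHIR99021 alone (adjusted p = 0.00295). Beside these genes, the summed signal of 5 neural progenitor markers, 4 of them above the reference, also split by CHIR99021: it ran from 34.2 to 35.0 in the 3 groups with it and from 35.8 to 36.9 in the others. Of the single markers, Pax6 split most, with group means of 6.54 to 7.07 with CHIR99021 and of 7.76 and 8.19 without it. Sox1 split less (7.99 to 8.08, against 8.24 and 8.39). Nes, at 7.53 in 2iLIF and 7.41 in DMSO, did not split, nor did Neurog2 and Zic1. The part of these markers in the results was not tested.

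A pair of neighbours on chromosome 6, Peg10 and Sgce, differed with PD0325901 and LIF. Peg10 derives from a retrotransposon and is needed for the placenta, and Sgce, which starts close to it on the other strand, encodes epsilon-sarcoglycan. Peg10 read 10.87, 10.997 and 11.14 in DMSO and 11.34, 11.08 and 11.13 in CHIR, but 9.83, 9.76 and 9.70 in PD03, 9.90, 9.91 and 10.03 in 2i, and 9.28, 9.22 and 9.31 in 2iLIF. The 6 arrays without PD0325901 lay above the 9 with it, and 2iLIF lay below the rest. Peg10 fell 2.36-fold with PD0325901 alone (-1.24 ± 0.07, limma adjusted p = 7.31e-09), by 1.23 ± 0.07 in 2i minus CHIR (adjusted p = 2.56e-08) and by 0.68 ± 0.07 with LIF (adjusted p = 8.57e-06). With CHIR99021 alone it was at 0.18 ± 0.07 (adjusted p = 0.0975).

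Sgce read 9.14, 8.88 and 8.99 in DMSO, 9.07, 9.13 and 9.09 in CHIR, 8.43, 8.32 and 8.47 in PD03, 8.52, 8.47 and 8.50 in 2i, and 7.54, 7.74 and 7.95 in 2iLIF. It fell by 0.60 ± 0.08 with PD0325901 alone (limma adjusted p = 6.92e-05) and by 0.75 ± 0.08 with LIF (adjusted p = 1.07e-05), and was at 0.10 ± 0.08 with CHIR99021 alone (adjusted p = 0.491). Farther along, Ppp1r9a, the gene of neurabin, fell by 0.34 ± 0.06 with LIF (adjusted p = 0.00127) and by 0.32 ± 0.06 in 2i minus DMSO (adjusted p = 0.00116). Ppp1r9a did not pass for either inhibitor alone. Asb4 was below the low-signal reference. On the far side of Sgce, Casd1 fell by 0.35 ± 0.08 with LIF (adjusted p = 0.00785).

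**Figure D4:**
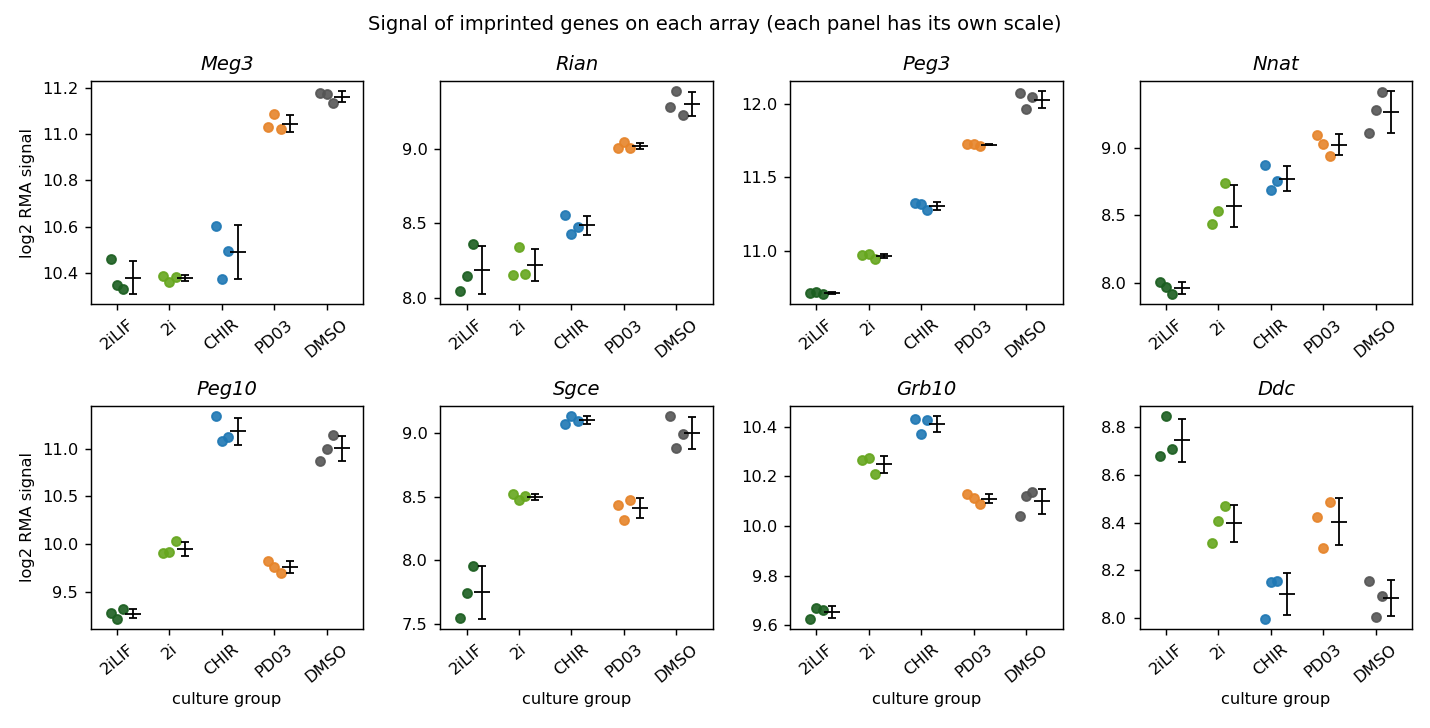
Log2 RMA signal of 8 imprinted genes on each array by culture group; points are arrays, dashes with bars are means ± SD (n = 3), and each panel has its own scale. Meg3, Rian, Peg3 and Nnat are highest in DMSO and PD03, Peg10 and Sgce are low in the groups with PD0325901, and Grb10 is lowest and Ddc highest in 2iLIF.

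Grb10 and Ddc, neighbours on chromosome 11, differed in opposite directions with LIF. Grb10 is an adaptor that limits insulin and IGF receptor signalling, and Ddc an aromatic amino acid decarboxylase. Grb10 read 10.04, 10.12 and 10.14 in DMSO, 10.13, 10.11 and 10.09 in PD03, 10.43, 10.37 and 10.43 in CHIR, 10.26, 10.27 and 10.21 in 2i, and 9.63, 9.67 and 9.66 in 2iLIF. It was thus highest in CHIR and lowest in 2iLIF, with DMSO and PD03 overlapping. It rose by 0.31 ± 0.04 with CHIR99021 alone (limma adjusted p = 1.23e-05) and fell by 0.60 ± 0.04 with LIF (adjusted p = 2.13e-08). Ddc rose by 0.35 ± 0.06 with LIF (adjusted p = 0.00141) and by 0.32 ± 0.06 with PD0325901 alone (adjusted p = 0.00212), and was at 0.02 ± 0.06 with CHIR99021 alone (adjusted p = 0.906).

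At the Kcnq1 locus the members moved in different ways. Phlda2, which limits placental growth, rose with one inhibitor and fell with the other. It rose by 0.20 ± 0.06 with CHIR99021 alone (limma adjusted p = 0.0305), a call lost without CHIR replicate 1 (0.14, adjusted p = 0.144) or DMSO replicate 2 (0.13, adjusted p = 0.161). It fell by 0.42 ± 0.06 with PD0325901 alone (adjusted p = 1.33e-04). In 2i minus DMSO it was at -0.11 ± 0.06 (adjusted p = 0.233). The tetraspanin gene Cd81 rose by 0.21 ± 0.04 with PD0325901 alone (adjusted p = 6.57e-04), and the transporter gene Slc22a18 by 0.24 ± 0.05 with LIF (adjusted p = 0.00727). Nap1l4, a histone chaperone, passed in 2i minus PD03 (0.12 ± 0.04, limma adjusted p = 0.0405), a call lost without any 1 array of either group or CHIR replicate 3 (lowest adjusted p 0.0514). Ascl2, a trophoblast factor, had group means from 6.34 to 6.49 and passed in none of the 7 comparisons.

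Igf2, the growth factor gene, had group means from 6.24 to 6.39, at the low-signal reference, and passed in no comparison. Igf2r, the receptor that clears IGF2, fell by 0.21 ± 0.03 with PD0325901 alone (limma adjusted p = 3.52e-04). Ndn, the gene of necdin, a MAGE family protein, had group means of 8.47 in DMSO, 8.46 in CHIR, 8.39 in PD03, 8.15 in 2i and 7.89 in 2iLIF. It fell by 0.32 ± 0.06 in 2i minus DMSO (adjusted p = 0.00144) without passing for either inhibitor alone (adjusted p = 0.982 and 0.508). Impact, an inhibitor of the kinase GCN2, rose by 0.12 ± 0.04 with CHIR99021 alone (adjusted p = 0.0379), a call lost without any 1 CHIR array or without DMSO replicate 2 or 3 (0.10 to 0.13, lowest adjusted p 0.0614). Smaller calls were those of Tssc4 and Asb4 (0.14 and 0.11) and of Mkrn3, Usp29 and Mcts2 (-0.20, -0.19 and -0.16) in 2i minus DMSO, of Mkrn3 with PD0325901 alone (-0.20) and of Zim1 with LIF (-0.14). All of these but that of Usp29 were lost in 3 or more of the 15 fits that left out 1 array. Igf2, Airn, Dlk1, Dio3, Ascl2, Magel2, Blcap, Trappc9, Kcnk9 and Rasgrf1 passed in none of the 7 comparisons. The share of all genes that passed in none was not counted. The lowest and highest group means of these genes differed by 0.38 for Dio3 and by 0.04 to 0.15 for the others. Dio3 did pass the limma F-test over the 5 groups (adjusted p = 0.00472).

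Likeness to Plagl1 was described by Pearson's r over the 15 arrays, which fall into the 9 with and the 6 without CHIR99021, so r mostly follows that split. Of the 34 other imprinted genes 6 had an r of at least 0.5 (17.6%, against 19.3% of all other genes) and 14 an r of -0.5 or lower (41.2%, against 18.4%). Impact was the most alike (r = 0.91, and 0.92 and 0.76 within the arrays with and without CHIR99021), although its group means spanned only 0.27. It had the Plagl1 call in 4 of the 7 comparisons. Slc22a18 followed at 0.77 (0.93 and 0.96 within). Meg3, Rian and Peg3 were the least alike, at -0.98, -0.97 and -0.97. Within the arrays with CHIR99021 these were -0.59, -0.73 and -0.98, and within those without it -0.68, -0.76 and -0.82. Of the reported targets of PLAGL1 in mouse, Cdkn1c had an r of -0.87 (-0.51 within the arrays with CHIR99021 and 0.31 within those without), Dlk1 of -0.35 (0.13 and -0.29) and Igf2 of -0.13 (0.35 and 0.58). Over all genes the 6 most alike were Fhl1, Tdrp, Agk, Syngr1, Pgap6 and Urm1, with r between 0.98 and 0.99, and of these Tdrp had the Plagl1 call in all 7 comparisons. Its group means were 9.26 in 2iLIF, 9.07 in 2i, 8.85 in CHIR, 8.18 in PD03 and 8.01 in DMSO.

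Among 21 genes of imprint maintenance and DNA methylation, 4 were higher and 6 lower with CHIR99021 alone (20.8% of all genes passed), 2 and 4 with PD0325901 alone (16.8% of all genes), and 3 and 5 with LIF (12.2% of all genes). The largest difference of the list with either inhibitor alone was that of Prdm14, a repressor of de novo methyltransferase genes in ES cells, which rose by 1.38 ± 0.05 with CHIR99021 alone (limma adjusted p = 2.71e-11), by 1.91 ± 0.05 with PD0325901 alone (adjusted p = 1.18e-12) and by 0.38 ± 0.05 with LIF (adjusted p = 7.25e-05). The de novo methyltransferase Dnmt3a fell by 0.88 ± 0.05 with CHIR99021 alone (limma adjusted p = 1.94e-09) and by 1.19 ± 0.05 with LIF (adjusted p = 2.54e-10). Of the genes known to protect imprints, Dppa3 rose by 0.28 ± 0.08 with CHIR99021 alone (adjusted p = 0.0222), and the zinc finger gene Zfp445 fell by 0.17 ± 0.05 with PD0325901 alone (adjusted p = 0.038). Setdb1, a histone methyltransferase that works with Trim28, rose by 0.14 ± 0.04 with CHIR99021 alone (adjusted p = 0.0125). Zfp57, which binds methylated control regions, fell by 0.13 ± 0.03 in 2i minus PD03 (adjusted p = 0.0157), and its partner Trim28 fell by 0.10 ± 0.03 in 2i minus DMSO (adjusted p = 0.0404). Of 32 other imprinted genes measured, 7 rose and 7 fell with CHIR99021 alone, 4 and 6 with PD0325901 alone, and 2 and 3 with LIF, beside 20.8%, 16.8% and 12.2% of all genes in either direction. Ampd3 fell by 0.61 ± 0.06 (adjusted p = 1.53e-06) and Sfmbt2 rose by 0.44 ± 0.06 (adjusted p = 2.72e-05) with CHIR99021 alone. H13, whose intron holds Mcts2, rose by 0.35 ± 0.04 there (adjusted p = 2.86e-06), while Mcts2 was at -0.10.

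Summed log2 signals of markers of other cells overlapped between all groups for 9 fibroblast and feeder genes, between 62.0 and 63.4. Members of that list moved in opposite directions: Vim rose by 0.41 ± 0.03 and Dcn fell by 0.22 ± 0.07 with CHIR99021 alone (limma adjusted p = 2.31e-07 and 0.0269). Of the 9, 5 were above the reference, and Dcn, Lum, Postn and S100a4 were below it. For 10 trophoblast markers the sums ran from 71.9 to 72.4 in 2iLIF and from 67.9 to 70.0 in the other groups, and Cdx2, Elf5, Gata3 and Tpbpa were below the reference. For 9 primitive endoderm markers they ran from 60.6 to 61.8 in 2iLIF and from 58.7 to 60.5 in the other groups, and 4 of the 9, not including Sox17, were above the reference. For 6 mesoderm markers, 5 of them above the reference, they ran from 43.3 to 43.7 in 2iLIF and from 40.7 to 42.7 in the other groups. The sums of these 3 lists were thus highest in 2iLIF, the group in which Peg10, Sgce, Grb10 and Nnat were lowest. Few genes carried them. In 2iLIF minus 2i, 3 of the 10, 1 of the 9 and 2 of the 6 passed as higher (4.56% of all genes). None passed as lower (7.66% of all genes). Eomes, on the trophoblast and mesoderm lists, had means of 9.59 in 2iLIF and 8.66 in 2i, and Lama1, of primitive endoderm, 8.95 and 7.76. The part of cells of other kinds in the results was not tested.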

How the data were processed

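The deposited values are log2 signals per probe set, which the authors computed with RMA, according to the submitters' processing notes; its version and the genome build are not given in the sources used here. RMA's quantile step hides a change shared by most genes, and RMA compresses differences of weak genes. The table held 34760 probe sets, with 0 unused columns and array medians from 6.98 to 7.06. Platform annotation gave 21640 probe sets exactly 1 symbol and 1321 several, and 11799 are unnamed here. For a gene with several sets (954 genes), the one with the highest mean stood for it.

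With limma 3.58.1 in R 4.3.3, lmFit and eBayes modelled the 5 group means over the 15 arrays with 10 residual and 5.09 prior degrees of freedom. All p-values are two-sided. The number of arrays limits precision: the median SE of a difference was 0.0509. A check on simulated data put changes of 0.5 and 1 into the CHIR group, with independent normal noise, and most changes of 1 were recovered. The share recovered among changes of 0.5 is not given here. Changes below 0.5, the size of many calls here, were not simulated. Alternatives were another rule for probe sets, a filter at a mean of 6, an intensity trend, array weights, arrays of the compared groups alone, median centring, a replicate block and leaving out each array.

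The members, lists and rules were chosen with earlier results of these data known. Members past the threshold with an absolute difference of at least 0.5 in any comparison were given on every array, the others by ranges, counts and single values. The genes most like Plagl1 were the 6 with the highest r, leaving out symbols of predicted genes. The 4 printed promoters, the miRNA genes, the neighbours of Plagl1 and both motifs were chosen after values were seen. Replicate numbers did not pair arrays: deviations of same-numbered arrays of different groups correlated between -0.36 and 0.34 (median -0.01, 30 pairs).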

Additional observations from a re-analysis of the deposited data

How the results depend on the processing

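Of 80 calls of imprinted genes in the 7 comparisons, 55 held under all 22 alternatives, and 25 were lost under at least 1. No called value changed its sign. The lost ones had absolute differences of at most 0.28, and the Asb4 call in 2i minus DMSO and the Mest call in PD03 minus DMSO were lost most often, under 15 and 14 alternatives. Plagl1 kept its calls throughout. When 1 array was left out, its difference ranged from 2.55 to 2.85 in CHIR minus DMSO, from 0.46 to 0.76 in PD03 minus DMSO, from 3.00 to 3.30 in 2i minus DMSO, from 0.41 to 0.51 in 2i minus CHIR, from 2.50 to 2.60 in 2i minus PD03, from -0.32 to -0.02 for the interaction and from 0.39 to 0.49 in 2iLIF minus 2i, with a highest adjusted p of 0.0493 among the called ones. Counts of imprinted genes called then ranged from 7 to 12 in CHIR minus DMSO, 9 to 12 in PD03 minus DMSO, 18 to 22 in 2i minus DMSO, 9 to 11 in 2i minus CHIR, 7 to 13 in 2i minus PD03 (12 with all arrays, and 7 without 2i replicate 2), 0 to 0 for the interaction, 11 to 13 in 2iLIF minus 2i and 21 to 24 in the F-test. With a replicate block the counts were 9, 11, 22, 11, 12, 0 and 12 for CHIR, PD03 and 2i against DMSO, 2i against CHIR and PD03, the interaction and LIF, and 23 in the F-test. With genes below a mean of 6 left out, fewer miRNA genes of the Dlk1 and Dio3 locus were tested, and 19 passed in CHIR minus DMSO, 7 in PD03 minus DMSO, 18 in 2i minus DMSO and 18 in 2i minus PD03. These counts are out of that smaller number and are not to be set against the counts out of all miRNA genes of the locus. The share of all genes that passed in that fit is not given here. Genes near the low-signal reference have compressed differences, which limits what can be seen for Igf2, Dio3, Airn, Zim1 and Usp29.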
